A study of Mus musculus with 6 samples.

Results

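Genes that mark and maintain naive T cells were followed in naïve CD4 T cells with and without the cap methyltransferase RNMT. There were 9 of them, chosen by name for their known roles, with earlier results of these data known. All 9 were found among the 46983 genes with counts. They encode the homing and egress receptors CCR7 and S1PR1, the survival receptor chain IL-7Rα (Il7r), and the transcription factors KLF2, LEF1, TCF1 (Tcf7), FOXO1, FOXP1 and SATB1. RNA sequencing of rRNA-depleted total RNA gave 6 libraries, 3 control and 3 Rnmt cKO. Control males were Rnmt fl/fl CD4cre - and Rnmt cKO males were Rnmt fl/fl CD4cre +, so that both groups carried floxed Rnmt alleles and only the second carried Cre. Cells were sorted from lymph nodes as naïve cells in a gate that included TCRb+ CD4+ CD44- DAPI-. Cre driven by Cd4 sequence acts from the CD4 and CD8 double positive thymocyte stage onward and therefore also in CD8 T cells, and no library from Cre-bearing animals with unfloxed Rnmt is compared here, so that effects of carrying Cre and of losing Rnmt cannot be told apart.

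A naive T cell circulates between blood and lymph nodes without dividing. CCR7 helps to bring it into the node, S1PR1 takes it out again along a sphingosine 1-phosphate gradient, and IL-7 received through IL-7Rα and the common gamma chain (Il2rg) keeps it alive through JAK1, JAK3 and STAT5. FOXO1 activates transcription of Il7r, Klf2 and Ccr7, KLF2 activates S1pr1, FOXP1 opposes FOXO1 at Il7r, TCF1 and LEF1 hold the T cell programme as partners of β-catenin and the Groucho (TLE) proteins, and SATB1 organises chromatin in T cells.

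The 9 genes did not move together. In Rnmt cKO cells Il7r fell to 0.516 of its control level, Klf2 rose 1.49-fold and S1pr1 rose 1.23-fold, while Ccr7, Lef1, Tcf7, Foxo1, Foxp1 and Satb1 did not pass the test. All 9 genes passed the filter of more than 1 CPM (sense counts scaled to a common library size with TMM factors) in at least 3 libraries. In the edgeR exact test, adjusted by Benjamini-Hochberg over all 12336 tested genes, 2 of the 9 were higher and 1 was lower in Rnmt cKO at the threshold of 0.05. Of all tested genes 8.0% were higher and 6.84% lower. The median log2 fold change of the 9 genes was 0.06, beside 0.01 over all tested genes, and together they summed to 5713 ± 63.1 CPM over the controls and to 6004 ± 94.0 CPM over the Rnmt cKO libraries (SD, n = 3 per group).

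Sense counts per library ranged from 8873413 to 11277764, and each of the 9 genes held at least 1923 counts in every library. The targeted gene, Rnmt, was at 51.5, 58.7 and 57.9 CPM in controls 1 to 3 and at 42.0, 37.5 and 26.6 CPM in Rnmt cKO 1 to 3, a log2 fold change of -0.67 ± 0.20 (SE, n = 3 per group, exact test adjusted p = 0.00035). The loxP sites flank only exon 3, so these whole-gene counts include reads of the other exons and do not measure the extent of deletion. The study reports that RNMT protein was minimal in naïve Rnmt cKO cells. All 14 CD4 T cell markers passed the filter, and they summed to 5652 to 6426 CPM per control and 5478 to 6596 CPM per Rnmt cKO library. The share of uniquely mapped reads that fell in no gene was 36.1%, 39.7% and 46.1% in controls 1 to 3 and 47.9%, 46.5% and 31.8% in Rnmt cKO 1 to 3. Control 3 and Rnmt cKO 3 therefore stood apart from the other 2 libraries of their groups, and values with and without them are given below. With scaling by library size alone, the median over all genes shifted from 0.01 to 0.14 on the log2 scale and the share of called genes that were higher from 53.9% to 78.4%. The 3 libraries of each group came from 3 mice. In bulk samples such as these, fewer cells of a type and less RNA per cell cannot be told apart.

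Sequence upstream of the RefSeq start is shown for Klf2 and Il7r, the called genes that had a RefSeq promoter entry and that moved in opposite directions. RefSeq starts on GRCm38.p6 matched 7 of the 9 genes, with 17 starts in all, and those of Ccr7 and S1pr1 were not matched. The Klf2 stretch covers 221 bases on chr8:72318812-72319032, plus strand, up to the gene start in GENCODE. Capitals mark GC boxes, searched as GGGCGG on both strands.
Klf2: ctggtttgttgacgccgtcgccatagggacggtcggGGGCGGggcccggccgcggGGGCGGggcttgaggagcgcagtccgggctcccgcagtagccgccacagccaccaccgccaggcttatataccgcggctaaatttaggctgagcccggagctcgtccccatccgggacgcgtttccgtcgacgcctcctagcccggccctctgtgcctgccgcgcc
The Il7r stretch covers 30 bases on chr15:9530000-9530029, minus strand. It lies upstream of the RefSeq start but within the gene as GENCODE bounds it, and begins its capitals 142 bases before the RefSeq start. Capitals mark a match to TTCNNNGAA, the pattern bound by STAT factors, in which N is any base.
Il7r: agttcaggagcTTCAGGGAAtaccaagatg
The Klf2 stretch held 2 GC boxes and was 71.5% G or C. The search covered only the 250 bases upstream of each start. In that window, GC boxes were found in 32.7% of 32851 RefSeq promoters and upstream of 10 of the 17 starts of these genes. The STAT pattern was found in 7.02% of promoters and, among the 17, only upstream of Il7r. The forkhead letters GTAAACA and the TCF letters ATCAAAG, each found in the same window of 3.17% and 3.21% of promoters, were in none of the 17 upstream windows. Outside the window, the forkhead letters do occur in the first transcribed bases of Tcf7 (start on chr11:52282595). Transcribed bases were not searched.

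Il7r (ENSMUSG00000003882, chr15:9505788-9530176, minus strand) encodes the chain of the IL-7 receptor that binds the cytokine. Its level was 381, 386 and 336 CPM in controls 1, 2 and 3 and 203, 191 and 175 CPM in Rnmt cKO 1, 2 and 3. Every Rnmt cKO library lay below every control library, and the lowest control was above the highest Rnmt cKO library by more than the range within either group. The log2 fold change was -0.96 ± 0.09 (SE, n = 3 per group, exact test adjusted p = 2.4e-17).

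Klf2 (ENSMUSG00000055148, chr8:72319033-72321656, plus strand) encodes a zinc finger factor of resting lymphocytes. Klf2 was measured at 289, 295 and 248 CPM in controls and at 413, 370 and 454 CPM in Rnmt cKO. The groups did not overlap, with control 3 the lowest of all 6 libraries and Rnmt cKO 3 the highest. The log2 fold change was 0.57 ± 0.12 (SE, n = 3 per group, exact test adjusted p = 2.0e-05).

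S1pr1 (ENSMUSG00000045092, chr3:115710433-115715072, minus strand) encodes the egress receptor. S1pr1 stood at 792, 819 and 790 CPM in controls and at 927, 966 and 1069 CPM in Rnmt cKO. The controls were close together, all 3 Rnmt cKO libraries were above them, and Rnmt cKO 3 was the highest. The log2 fold change was 0.30 ± 0.06 (SE, n = 3 per group, exact test adjusted p = 0.026). Unlike Il7r and Klf2, which passed the threshold in all 14 other settings tried, S1pr1 passed it in 7 of 14. It missed it without control 1, 2 or 3 or Rnmt cKO 2 (adjusted p between 0.10 and 0.12). Under the quasi-likelihood test S1pr1 missed it as well, both plain (adjusted p = 0.066) and with a replicate block (adjusted p = 0.22). The exact test with no filter on low counts gave an adjusted p of 0.063.

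**Figure D1:**
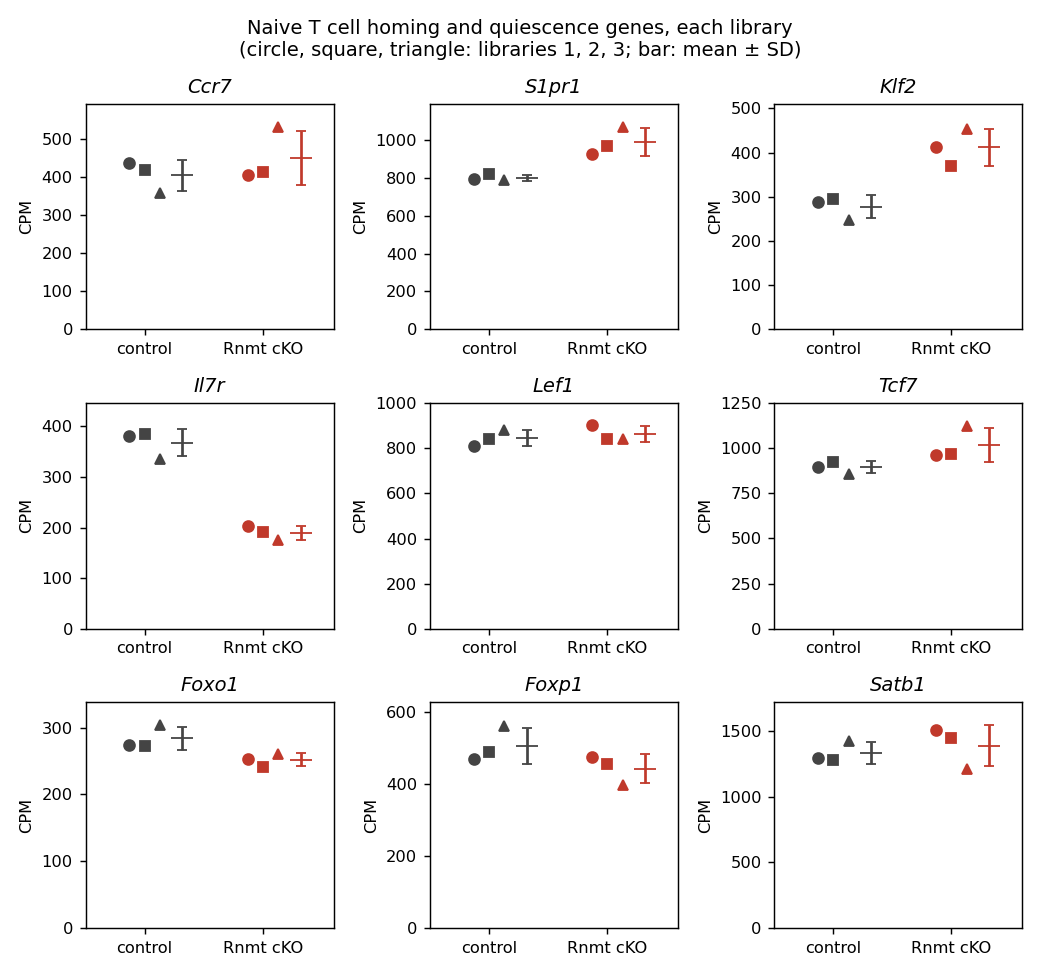
TMM-scaled CPM of the 9 genes, with 1 point per library (circle, square and triangle for libraries 1, 2 and 3), controls in grey and Rnmt cKO in red, and the mean ± SD of 3 libraries beside the points, on axes that start at 0. The 3 Il7r values of Rnmt cKO (175 to 203 CPM) lie below the controls (336 to 386 CPM), while those of Klf2 and S1pr1 lie above.

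Ccr7 (ENSMUSG00000037944, chr11:99144196-99155077, minus strand) encodes the receptor for the chemokines CCL19 and CCL21. Controls held 438, 420 and 360 CPM of it, and Rnmt cKO libraries held 405, 415 and 531 CPM. The groups overlapped, and only Rnmt cKO 3 was above all controls. The log2 fold change of Ccr7 was 0.15 ± 0.15 (SE, n = 3 per group, exact test adjusted p = 0.53), and it was -0.0020 without Rnmt cKO 3.

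Tcf7 (ENSMUSG00000000782, chr11:52252371-52283014, minus strand) and Lef1 (ENSMUSG00000027985, chr3:131110471-131224356, plus strand) encode the related factors TCF1 and LEF1. Tcf7 was at 898, 924 and 860 CPM in controls and at 962, 965 and 1124 CPM in Rnmt cKO, with a log2 fold change of 0.19 ± 0.08 (SE, n = 3 per group, exact test adjusted p = 0.28). All 3 Rnmt cKO values of Tcf7 were above the controls, although the gene did not pass the test. Lef1 was at 812, 842 and 883 CPM in controls and at 906, 844 and 842 CPM in Rnmt cKO. The groups of Lef1 overlapped almost fully, and its log2 fold change was 0.03 ± 0.05 (SE, n = 3 per group, exact test adjusted p = 0.91).

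Foxo1 (ENSMUSG00000044167, chr3:52268336-52353221, plus strand) and Foxp1 (ENSMUSG00000030067, chr6:98925338-99522721, minus strand) encode forkhead factors. Foxo1 was at 275, 273 and 304 CPM in controls and at 253, 242 and 261 CPM in Rnmt cKO, with a log2 fold change of -0.17 ± 0.06 (SE, n = 3 per group, exact test adjusted p = 0.26). The Rnmt cKO libraries were all below the controls for Foxo1, by a margin that did not pass the test. Foxp1 was at 469, 488 and 563 CPM in controls and at 475, 455 and 398 CPM in Rnmt cKO. Rnmt cKO 1 lay within the control range, and the log2 fold change of Foxp1 was -0.19 ± 0.11 (SE, n = 3 per group, exact test adjusted p = 0.29).

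Satb1 (ENSMUSG00000023927, chr17:51736187-51833290, minus strand), the chromatin organiser, had the highest counts of the 9 genes. It was measured at 1292, 1280 and 1425 CPM in controls and at 1508, 1447 and 1210 CPM in Rnmt cKO. Rnmt cKO held both the highest libraries and the lowest one, and the log2 fold change was 0.06 ± 0.11 (SE, n = 3 per group, exact test adjusted p = 0.83).

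Counting by overlap alone, S1pr1, Klf2 and Tcf7 were above all controls in every Rnmt cKO library, and Il7r and Foxo1 below. Of all tested genes 16.6% were above in this way and 14.9% below.

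**Figure D2:**
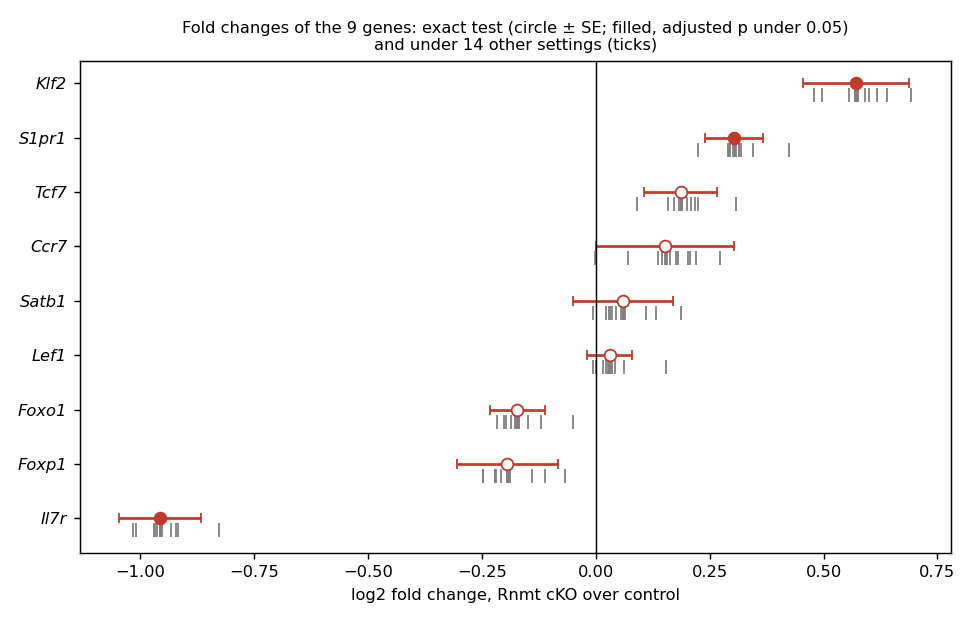
Log2 fold change of each gene in Rnmt cKO over control (circle ± SE, n = 3 per group, filled where the exact test adjusted p was under 0.05), with grey ticks for the values under 14 other settings. All ticks of Il7r lie between -1.02 and -0.83 and those of Klf2 between 0.48 and 0.69, whereas ticks of Ccr7, Lef1 and Satb1 fall on both sides of 0.

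The libraries that stood apart in the share of reads in no gene also held the highest or lowest level of each of the 9 genes in their group. Control 3, the control with the highest share, was the lowest control for Ccr7, S1pr1, Klf2, Il7r and Tcf7 and the highest for Lef1, Foxo1, Foxp1 and Satb1. Rnmt cKO 3, with the lowest share, was the highest of its group for Ccr7, S1pr1, Klf2, Tcf7 and Foxo1 and the lowest for Il7r, Lef1, Foxp1 and Satb1. The comparison was therefore repeated among libraries of like share. Among controls 1 and 2 and Rnmt cKO 3, which had the 3 lowest shares, the log2 ratio of Rnmt cKO to control was -1.14 for Il7r, 0.64 for Klf2 and 0.41 for S1pr1. Among control 3 and Rnmt cKO 1 and 2 it was -0.77 for Il7r, 0.66 for Klf2 and 0.26 for S1pr1. The values were 0.31 and 0.19 for Ccr7, 0.30 and 0.16 for Tcf7, -0.07 and -0.30 for Foxo1, -0.27 and -0.28 for Foxp1, 0.03 and -0.01 for Lef1, and -0.09 and 0.05 for Satb1. In each set 1 group is a single library, so these ratios have no spread on that side and no test, and they do not show how far the share bears on the differences.

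A quasi-likelihood fit with the share of each library as a covariate called more of the genes. In it 4 were higher, namely Klf2, S1pr1, Tcf7 (log2 fold change 0.20, adjusted p = 0.013) and Ccr7 (0.18, adjusted p = 0.019), and 3 were lower, namely Il7r, Foxp1 (-0.22, adjusted p = 0.0080) and Foxo1 (-0.17, adjusted p = 0.048). The same fit called 13.7% of all tested genes higher and 11.9% lower.

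Levels of different genes were compared as RPKM, that is CPM per kilobase of summed exon length. In controls the order was Tcf7 (341 ± 12.3 RPKM), S1pr1 (263 ± 5.43), Lef1 (241 ± 10.1), Ccr7 (205 ± 20.6), Klf2 (150.2 ± 13.9), Satb1 (116 ± 7.00), Il7r (104 ± 7.67), Foxp1 (64.5 ± 6.31) and Foxo1 (32.8 ± 2.05, all SD, n = 3). No 2 neighbours in that order overlapped in their ranges over the 3 controls. In Rnmt cKO the order was Tcf7 (387 ± 35.3 RPKM), S1pr1 (324 ± 24.1), Lef1 (246 ± 10.4), Ccr7 (228 ± 35.5), Klf2 (223 ± 22.7), Satb1 (121 ± 13.7), Foxp1 (56.4 ± 5.08), Il7r (53.5 ± 4.07) and Foxo1 (29.1 ± 1.12, all SD, n = 3). The ranges of Lef1 and Ccr7, of Ccr7 and Klf2, and of Foxp1 and Il7r overlapped in Rnmt cKO. Among 10390 protein-coding genes ranked by RPKM, Il7r went from rank 347 in controls to rank 907 in Rnmt cKO and Klf2 from rank 227 to rank 151. Tcf7 held the highest rank of the 9 in both groups, at 106 and 86.

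**Figure D3:**
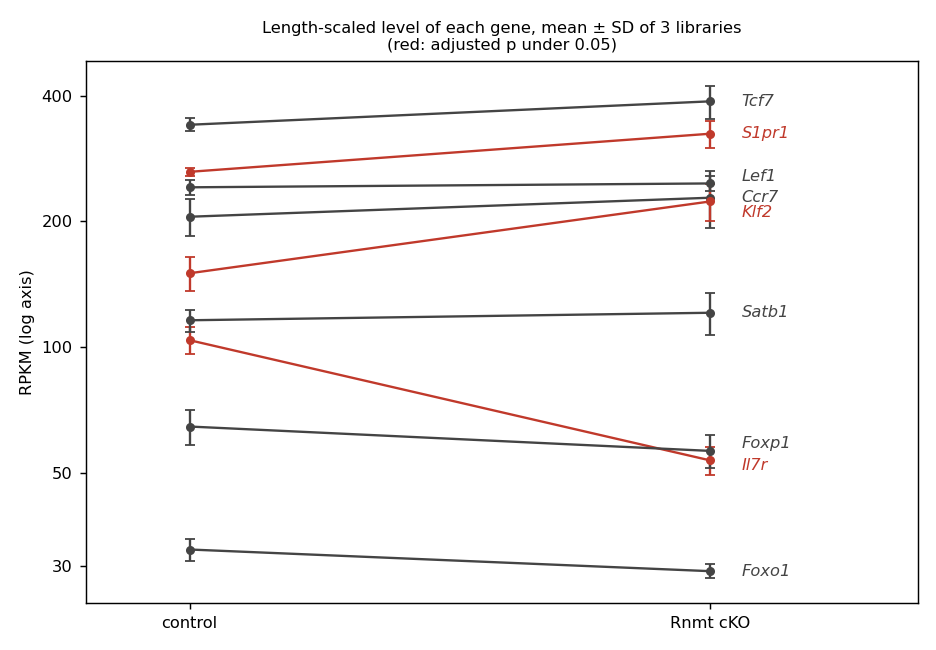
Mean length-scaled level (RPKM, log axis) of each gene in control and in Rnmt cKO, with SD over 3 libraries. Red marks genes with an exact test adjusted p under 0.05. Klf2 rises from 150.2 to 223 RPKM to meet Ccr7, and Il7r falls from 104 to 53.5 RPKM to meet Foxp1, while S1pr1 rises from 263 to 324 RPKM without changing its place.

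Ratios of counts within a library do not depend on the scaling between libraries. Klf2 and Il7r, which share FOXO1 as an activator, moved apart. There were 1.32, 1.31 and 1.36 Il7r counts per Klf2 count in controls and 0.492, 0.516 and 0.385 in Rnmt cKO. Klf2 counts per Foxo1 count were 1.05, 1.08 and 0.815 in controls and 1.63, 1.53 and 1.74 in Rnmt cKO. Neither ratio overlapped between groups, which follows from the separate levels of Klf2, Il7r and Foxo1 given above and adds nothing to them. By contrast, S1pr1 per Ccr7 (1.81 to 2.19 in controls, 2.01 to 2.33 in Rnmt cKO) and Lef1 per Tcf7 (0.904 to 1.03 and 0.749 to 0.942) overlapped.

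The list of IL-7 receptor signaling did not fall with Il7r. It held 29 genes apart from Il7r itself, among them chains of other cytokine receptors, glucose transporters and feedback inhibitors such as Socs3. The list was chosen with earlier results of these data known, so the counts below are a description. Of the 29, 14 were higher and 2 were lower, with a median log2 fold change of 0.30, beside 8.0% higher and 6.84% lower over all tested genes. Il2rg, the common gamma chain that pairs with IL-7Rα, was at 145, 135 and 132 CPM in controls and at 183, 178 and 186 CPM in Rnmt cKO. All 3 Rnmt cKO values of Il2rg were above the controls, a log2 fold change of 0.41 ± 0.04 (SE, n = 3 per group, exact test adjusted p = 0.00013). With the opposite changes of both chains, Il7r counts per Il2rg count went from 2.63, 2.85 and 2.54 in controls to 1.11, 1.07 and 0.941 in Rnmt cKO.

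The largest rises on that list were those of Socs3, a feedback inhibitor of cytokine receptors, and Pim1, a kinase induced by STAT factors. Socs3 was at 164, 163 and 150.3 CPM in controls and at 470.3, 501 and 537 CPM in Rnmt cKO, a log2 fold change of 1.66 ± 0.07 (SE, n = 3 per group, exact test adjusted p = 7.0e-56). The Rnmt cKO libraries of Socs3 were all far above the controls, and Pim1 behaved likewise with a log2 fold change of 1.31 ± 0.10 (SE, n = 3 per group, exact test adjusted p = 3.6e-31). The lower genes were Slc2a3, a glucose transporter (log2 fold change -0.31), and Il4ra, the IL-4 receptor chain (-0.26). Both missed the threshold in 10 of 14 other settings.

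**Figure D4:**
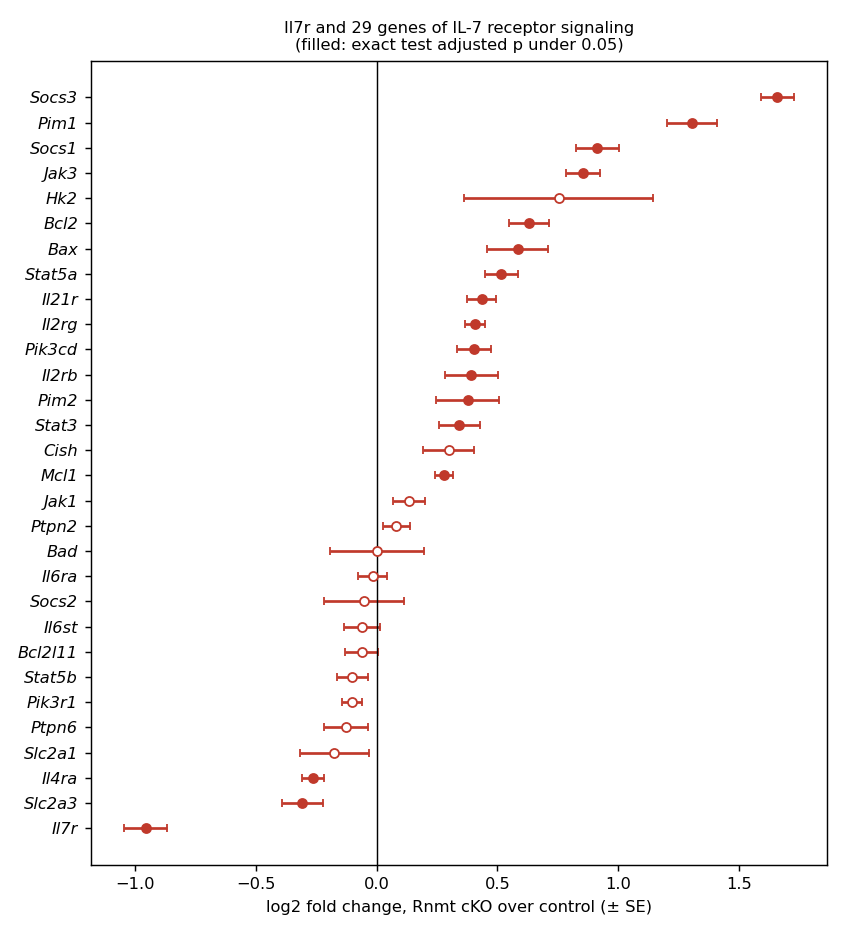
Log2 fold change (± SE, n = 3 per group) of Il7r and the 29 genes of IL-7 receptor signaling, filled where the exact test adjusted p was under 0.05. Il7r stands lowest at -0.96, and 14 of the other genes pass the test above 0, up to Socs3 at 1.66.

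Of 42 tested genes of lymphocyte trafficking 4 were higher and 2 lower, with a median log2 fold change of 0.06. These counts were close to the shares over all tested genes, 8.0% higher and 6.84% lower. The same shares stand beside the counts of the lists below. Without Rnmt cKO 3 the balance turned, to 2 higher and 8 lower and a median of -0.02, and in the other fits that left out 1 library 2 to 4 were higher and 1 to 2 lower. Rgs2, a regulator of G protein signaling, was higher by 0.44 on the log2 scale and Icam2, an adhesion molecule, fell by 0.45. Rgs2 missed the threshold in 11 and Icam2 in 8 of 14 other settings, and scaling by library size alone gave 10 higher genes. Also called were Ccr2 and Fut7, higher, and Ccr4, lower, all under 5 CPM in both groups and named here after their values were seen.

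The wider list of quiescence and naive state genes held 44 tested genes, of which 9 were higher and 1 was lower (median log2 fold change 0.06). Igfbp4, an insulin-like growth factor binding protein, rose from 680.1 ± 71.5 to 1492 ± 214 CPM (SD, n = 3 per group), a log2 fold change of 1.13 ± 0.14 (SE, exact test adjusted p = 2.2e-15). Nfkbia, the inhibitor of NF-κB, rose by 0.79 ± 0.12 (SE, exact test adjusted p = 2.7e-10) on the same scale. Dapl1 went the other way, from 83.7 ± 16.9 to 23.5 ± 4.73 CPM (SD, n = 3 per group), a log2 fold change of -1.83 ± 0.24 (SE, exact test adjusted p = 5.0e-22). Cdkn1b, the cyclin-dependent kinase inhibitor p27, had a log2 fold change of 0.13 ± 0.04 (SE, exact test adjusted p = 0.40). With scaling by library size alone 16 genes of the list were higher.

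Of 34 genes that act on or with FOXO1 and KLF2, 4 were higher and 1 was lower (median log2 fold change -0.01). Sgk1, a kinase that phosphorylates FOXO factors, rose from 67.04 ± 7.01 to 114 ± 7.33 CPM (SD, n = 3 per group), a log2 fold change of 0.77 ± 0.10 (SE, exact test adjusted p = 8.2e-11). Kat2b, an acetyltransferase, rose by 0.40 on the log2 scale, and Akt2 (0.35), a kinase of the same signaling route named after its values were seen, was also higher. Nedd4l, a ubiquitin ligase, fell by 0.32 and missed the threshold in 10 of 14 other settings. Scaling by library size alone raised the number of higher genes to 8, 2 were higher without control 2, and the median turned to 0.04 without control 3.

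The list of TCF and LEF partners also took in genes that are not direct partners, such as Id2 and genes of the β-catenin destruction complex. Of its 29 tested genes, 2 were higher and 2 lower (median log2 fold change 0.05). Id2, an inhibitor of E proteins, rose by 0.91 ± 0.08 (SE, n = 3 per group, exact test adjusted p = 4.5e-13) on the log2 scale, and Gsk3a, a kinase of the β-catenin destruction complex, by 0.32. Tle1, a Groucho corepressor, fell by 0.68, and Bcl9l, a β-catenin cofactor, fell by 0.47. Tle1 went from 18.8 ± 0.300 to 11.7 ± 0.780 CPM (SD, n = 3 per group). Gsk3a missed the threshold in 8 of 14 other settings, library size scaling alone gave 6 higher genes, and the median turned to -0.03 without Rnmt cKO 3.

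Markers of other cell types and states moved between the groups, and their part in the changes of Il7r, Klf2 and S1pr1 was not tested. Over all tested genes 8.0% were higher and 6.84% lower. Of 30 proliferation markers 27 were higher, summing to 499 to 535 CPM per control and 971 to 1060 CPM per Rnmt cKO library. Of 18 activated T cell markers 9 were higher and 2 lower (Il2ra and Cd40lg), with sums of 635 to 674 and 770 to 908 CPM. Of 18 B cell markers 9 were higher and 1 lower (Ighm), with overlapping sums of 432 to 522 and 411 to 667 CPM. Of 8 myeloid markers 4 were higher (Lyz2, S100a8, S100a9 and Mpeg1) and none was lower, with overlapping sums of 215 to 273 and 204 to 266 CPM. Of 10 memory and effector markers 4 were higher (Il2rb, Ccr2, Anxa2 and Id2) and 2 lower (Cd44 and Prf1), with sums of 427 to 454 and 423 to 468 CPM. Of 12 regulatory T cell markers 1 was higher (Gpr83) and 4 lower (Foxp3, Il2ra, Nrp1 and Capg), with sums of 486 to 524 and 416 to 430 CPM. Of 9 thymocyte markers 4 were higher (Cd1d1, Arpp21, Sox4 and Cd24a) with overlapping sums of 461 to 521 and 449 to 476 CPM, and the defining thymocyte gene Ptcra was at 0 counts in all 6 libraries. Both CD8 markers, Cd8a and Cd8b1, were lower, with sums of 21.7 to 23.3 and 13.5 to 17.3 CPM, and of the CD4 T cell markers Cd4 was higher and Cd3g and Thy1 lower. The marker genes named here were chosen after their values were seen.

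Several annotated genes lie across the 9 loci. Gm43352, antisense to the first part of Lef1, was at 8.23, 6.89 and 5.85 CPM in controls and at 12.2, 11.3 and 17.2 CPM in Rnmt cKO. A630014C17Rik, antisense to Tcf7, was at 8.70, 8.58 and 6.41 CPM in controls and at 11.2, 11.1 and 12.5 CPM in Rnmt cKO. Both were above the controls in every Rnmt cKO library, with log2 fold changes of 0.96 ± 0.23 and 0.55 ± 0.15 (SE, n = 3 per group, exact test adjusted p = 0.00044 and 0.030), although the sense genes Lef1 and Tcf7 did not pass the test. The counts used here keep reads of the 2 strands apart.

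On the sense strand, units annotated within introns of Satb1, Foxo1 and Lef1 held fewest reads in the library with the lowest share of reads in no gene. The 4 such units of Satb1, named E430014B02Rik, C230085N15Rik, 5830444F18Rik and Gm37248, held 22.6, 24.2 and 28.6 counts per 100 Satb1 counts in controls and 29.8, 29.6 and 17.0 in Rnmt cKO. Rnmt cKO 3 had the lowest value, as it did for Gm38034 in Foxo1 (8.90, beside 12.2 to 23.5 in the other libraries) and for Gm42449 in Lef1 (3.39, beside 5.46 to 8.64). Gm20705 in Foxp1 did not follow the share and was at 1.12 to 1.71 per 100 in controls and at 2.00 to 3.18 in Rnmt cKO. Gm36931 in Satb1, Gm26551 in Tcf7 and Gm20696 in Foxp1 share exons with those genes, so that reads may be split between them. Gm36931 had a log2 fold change of 0.15, Gm26551 of 0.35 and Gm20696 of -0.03, with overlapping groups. Gm6934, opposite to Satb1, was at 29.8 ± 0.224 and 27.7 ± 4.74 CPM (SD, n = 3 per group), while Gm20402, Gm49348 and Gm22328 held 4 counts or fewer in every library.

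Reads antisense to the 9 genes were few. Ccr7, S1pr1, Lef1 and Satb1 had more of them in every Rnmt cKO library than in any control, as did 9.70% of the 11296 tested genes with any antisense count. That share takes in genes with very few antisense counts and is not matched for depth.

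**Figure D5:**
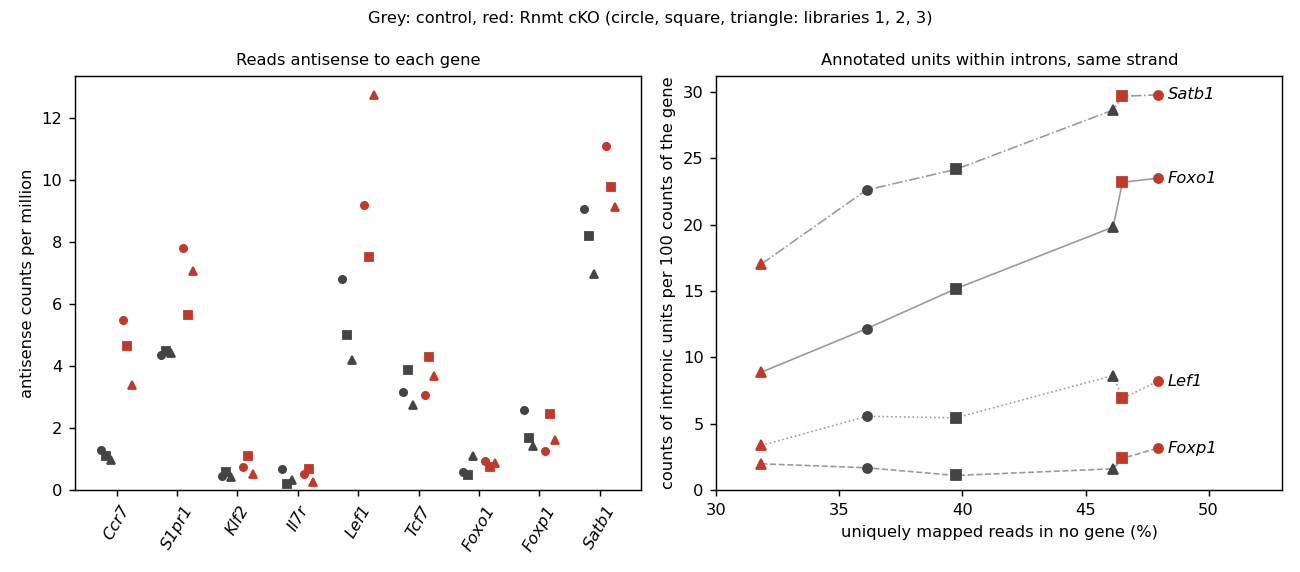
Left, antisense CPM at the 9 genes, with 1 point per library (grey control, red Rnmt cKO). Right, counts of same-strand intronic units per 100 counts of the gene, against the percentage of uniquely mapped reads in no gene. Antisense counts at Ccr7 lie between 0.994 and 1.29 CPM in controls and between 3.41 and 5.49 CPM in Rnmt cKO, and the intronic units of Satb1 and Foxo1 are lowest in Rnmt cKO 3.

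Likeness of pattern was measured as the root mean square difference between log2 CPM profiles over the 6 libraries, each centred on its own mean, among 8452 other genes with at least 10 CPM on average. The nearest gene to Il7r was Nfic, at a difference of 0.072, whose level went from 23.0 to 24.6 CPM in controls to 12.6 to 14.3 CPM in Rnmt cKO. The nearest gene to Klf2 was Rbm22, at 0.044, which went from 75.1 to 88.2 CPM in controls to 109.8 to 125 CPM in Rnmt cKO. S1pr1 was nearest to Ptms (0.013), Ccr7 to Gabarap (0.025), Lef1 to Tbc1d1 (0.013), Tcf7 to Eif1ad (0.020), Foxo1 to Synj2 (0.025), Foxp1 to Mef2d (0.020) and Satb1 to Slc43a2 (0.012). Il7r and Klf2 had the largest differences of the 9 and also the widest ranges over the 6 libraries (1.14 and 0.87 on the log2 scale). The difference is not scaled to the range of a gene, so its size does not rank closeness of match between genes. These differences describe 6 libraries and carry no test.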

How the data were processed

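The 9 genes and the gene lists were chosen with earlier results of these data known. Per the labels and the study's methods, the authors prepared TruSeq libraries after Ribo-Zero Gold depletion, aligned reads to mm10 (GRCm38) with STAR 2.5.2b and deposited raw counts per gene for 46983 genes, in 3 columns for either strand and for each strand. The third column held the sense counts, which gave, when scaled by 1 constant per library, the normalised signal that the authors deposited in their edgeR table for 100% of its 11221 genes; those signal columns served for that check only. Fold changes and p-values in that table were not used.

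Sense counts were filtered (more than 1 CPM in at least 3 libraries), scaled with TMM factors and tested with the exact test of edgeR 4.0.16 (tagwise dispersion, R 4.3.3), with Benjamini-Hochberg adjustment over 12336 genes. SEs came from per-library log2 CPM with a prior count of 2. Code was tested on simulated data. Replicates of a group differed beyond sampling noise (chi-square per degree of freedom 3.81 to 25.6). Coordinates, exon lengths and overlaps came from GENCODE vM21 on GRCm38, and promoter sequence from RefSeq. Reads in no gene were kept out of library sizes.

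Named genes were the 9 genes, Rnmt, Il2rg, Cdkn1b, the 2 largest rises and 2 largest falls of each pathway list among called genes with a mean of at least 5 CPM, the gene nearest to each of the 9 in pattern, and genes overlapping the 9. Some genes that meet this rule are not reported here, but count in their lists. Pathway lists were lymphocyte trafficking, quiescence and naive state, IL-7 receptor signaling, FOXO and KLF2 control, and TCF and LEF partners. Alternatives were the edgeR quasi-likelihood test, DESeq2 1.42.0, scaling by library size, other filters, unstranded counts, the share of reads in no gene as a covariate, a replicate block and leaving out each library.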

Additional observations from a re-analysis of the deposited data

Results flagged for a closer look

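Reads antisense to 4 of the 9 genes, counted in a column that the comparison of sense counts does not use, were above all controls in every Rnmt cKO library. At Ccr7 there were 11, 11 and 9 antisense counts in controls and 52, 55 and 38 in Rnmt cKO, a mean of 1.13 and 4.51 CPM, while Ccr7 itself did not pass the test. At S1pr1 the counts were 37, 45 and 40 in controls and 74, 67 and 79 in Rnmt cKO, a mean of 4.42 and 6.85 CPM. At Lef1, where the antisense gene Gm43352 overlaps, they were 58, 50 and 38 in controls and 87, 89 and 142 in Rnmt cKO, a mean of 5.34 and 9.81 CPM. At Satb1 they were 77, 82 and 63 in controls and 105, 116 and 102 in Rnmt cKO, a mean of 8.07 and 10.01 CPM. Antisense counts came to between 0.262 and 1.36 per 100 sense counts at Ccr7 and to at most 0.844 at S1pr1, so that they add little to unstranded levels. Of tested genes with any antisense count, 9.70% were above all controls in this way, a share not matched for the number of antisense counts. The differences in antisense counts were not tested.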

How the results depend on the processing

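Il7r and Klf2 kept their direction and passed the threshold in all 14 alternatives, with log2 fold changes of -1.02 to -0.83 and 0.48 to 0.69. S1pr1 kept its direction (0.22 to 0.42) and passed in 7. Of the 9 genes, 1 was higher under the quasi-likelihood test, with no filter on low counts and with the replicate block, 4 were higher and 3 lower with the share of reads in no gene as a covariate, and 1 to 2 were higher and 1 lower when a library was left out. Of the pathway genes, 33 were higher and 8 lower. The higher ones became 55 with library size only, 51 with the covariate and 18 with the block, and 23 to 32 without a library. The lower ones became 4 under the quasi-likelihood test and with library size only, 5 under DESeq2, with no filter and with unstranded counts, 16 with the covariate and 3 with the block. Without a library there were 4 to 16 lower pathway genes, with 4 without control 2 or Rnmt cKO 1, 5 without control 1 or 3 and 16 without Rnmt cKO 3. Alternatives were run for the 9 genes and for Rnmt and the genes named by rule from the pathway lists, and not for the other genes named. Among those run, the reversed values were those of Ccr7 without Rnmt cKO 3 (-0.0020, lowest of -0.0020 to 0.221 when a library was left out), Lef1 without Rnmt cKO 1 (-0.0062 to 0.062) and Satb1 without Rnmt cKO 1 (-0.0054 to 0.132). The causes were not tested. Deviations of same-numbered libraries from their group means correlated at -0.21, -0.02 and -0.35, so that no pairing by replicate number was seen. The highest correlations were 0.35 for control 1 with Rnmt cKO 3 and 0.29 for control 3 with Rnmt cKO 2. Each of these pairs was alike in the share of reads in no gene, which could hide a pairing, so this check cannot exclude one. Under the replicate block S1pr1 (adjusted p = 0.22) missed the threshold. With 3 libraries per group, differences the size of those of Tcf7 (0.19) and Foxo1 (-0.17) passed in 2 and 1 of the alternatives. Each of the 9 genes held at least 1923 counts per library, so that precision rests on the spread between libraries.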
